A study of Mus musculus with 9 samples.

Results

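The transcripts described here encode the subunits of Polycomb repressive complex 2 (PRC2), namely Ezh1, Ezh2, Eed, Suz12, Rbbp4, Rbbp7, Mtf2, Phf19, Jarid2 and Aebp2. They were found by symbol among 30232 gene rows of the deposited counts, also within rows that merge several symbols. All 10 had a row and all 10 passed the filter on low counts, among 12645 rows tested. Aebp2 shares its row with BC008224, so that row is not Aebp2 alone. The data are 3' end counts of poly(A)+ RNA (MARS-seq2.0) from 9 libraries of mouse embryonic stem (ES) cells, which asked what changes when Gzf1, a zinc finger gene, is knocked out.

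RGM cells of run2 gave wild-type replicates 1 and 2 and Gzf1-knockout replicates 1 and 2. V6.5 cells, an established mouse ES cell line, gave wild-type replicate 3 and knockout replicates 3, 4 and 5, all in run1. Wild-type replicate 4, also of run1, was a Cas9-GFP line. All cells had grown in serum and LIF on irradiated fibroblast feeders, which were depleted before harvest. The labels name neither clones nor the position of the edit, nor whether replicates came from separate cultures, so p-values measure only how these libraries vary, and that variation may be technical. Because run2 held the RGM libraries and no others, cell line and run cannot be told apart.

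PRC2 places methyl groups on lysine 27 of histone H3, a mark of silenced developmental genes in ES cells. Ezh1 and Ezh2 are alternative catalytic subunits, Eed binds the finished mark, Suz12 holds the complex together, and Rbbp4 and Rbbp7 are related histone-binding proteins. Accessory subunits define separate forms of the complex: Mtf2 and Phf19 are Polycomb-like proteins of PRC2.1, and Jarid2 and Aebp2 belong to PRC2.2. Rbbp4 and Rbbp7 also serve other chromatin complexes.

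Library totals ranged from 2568489 to 3704162 counts in run2 and from 4872127 to 7072697 in run1. Levels are given in CPM, the count of a gene relative to the TMM-scaled total of its library, and 3 counts, taken as the floor, were worth 0.412 to 1.18 CPM. The members held 19 to 3839 counts per library, the lowest being Phf19 in knockout replicate 4. The ES cell label was met by Nanog at 552 to 1080 CPM and Sox2 at 359 to 591 CPM, with Pou5f1 at 25.3 to 52.5 CPM. Gzf1 itself averaged 21.3 ± 10.2 CPM (SD) over the 4 wild-type libraries and 7.19 ± 4.78 CPM (SD) over the 5 knockout libraries. Its fitted log2 fold change was -1.45 (SE 0.42) and did not pass over all rows (unadjusted p = 0.0048, edgeR adjusted p = 0.9997). A 3' tag outside an edited part of the gene checks nothing about the edit.

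Among the V6.5 libraries, 1 lay nearest to a library of another line. Knockout replicate 4, labelled V6.5, lay nearest to the Cas9-GFP wild-type library, with a root mean square difference of 0.452 in log2 CPM over the tested rows. Its distance was 0.587 to V6.5 wild-type replicate 3 and 0.683 and 0.743 to V6.5 knockout replicates 3 and 5. V6.5 knockout replicate 5 was likewise at 0.625 from wild-type replicate 3 and 0.613 from knockout replicate 3. The 10 pairs within run1 ranged from 0.452 to 0.743 and the 6 pairs within run2 from 0.390 to 0.465. Results that rest on both libraries numbered 4 are therefore also given without them, a choice made after seeing the data.

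The promoters of the 2 members with the largest rise in RGM cells and of the member with the largest fall are shown because these 3 genes had the largest called differences between lines in their direction. Sequences are from RefSeq (GRCm38.p6), run from 250 bases before to 50 after the gene's start, and are written 5' to 3' on the gene's strand with CG dinucleotides in capitals. Phf19 lies at chr2:34913927-34914226 (minus strand), Rbbp4 at chr4:129335321-129335620 (minus strand) and Jarid2, with the first of its starts, at chr13:44730524-44730823 (plus strand).
Phf19: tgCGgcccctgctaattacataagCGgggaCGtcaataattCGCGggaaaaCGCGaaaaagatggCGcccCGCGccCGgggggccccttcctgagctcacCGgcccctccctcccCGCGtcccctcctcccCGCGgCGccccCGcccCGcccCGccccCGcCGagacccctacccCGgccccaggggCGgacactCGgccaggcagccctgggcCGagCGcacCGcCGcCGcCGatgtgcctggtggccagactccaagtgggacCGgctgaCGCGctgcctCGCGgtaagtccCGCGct
Rbbp4: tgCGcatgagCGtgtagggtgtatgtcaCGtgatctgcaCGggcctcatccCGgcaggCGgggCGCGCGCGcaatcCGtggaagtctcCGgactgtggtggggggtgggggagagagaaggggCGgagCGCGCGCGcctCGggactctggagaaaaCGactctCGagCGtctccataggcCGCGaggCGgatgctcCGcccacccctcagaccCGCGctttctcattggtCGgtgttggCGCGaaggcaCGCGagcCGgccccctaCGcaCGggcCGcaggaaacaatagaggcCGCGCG
Jarid2: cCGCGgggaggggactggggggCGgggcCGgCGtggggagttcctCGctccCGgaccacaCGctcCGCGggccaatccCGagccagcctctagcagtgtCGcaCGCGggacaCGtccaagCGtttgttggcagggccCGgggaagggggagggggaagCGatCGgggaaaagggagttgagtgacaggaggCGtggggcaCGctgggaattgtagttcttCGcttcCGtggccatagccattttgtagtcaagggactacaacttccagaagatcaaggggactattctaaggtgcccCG

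These windows hold 38, 39 and 24 CG dinucleotides, against a median of 7 over 32851 promoter windows of the same length. The table held 14 windows for the 10 members, and each member had at least 1 window with 17 or more CG dinucleotides. CCAAT, the NF-Y motif, stood on either strand in 9 of the 14 windows and in 37.4% of all windows. GGGCGG, an SP-type motif, was likewise in 9 of 14 and in 35.7% of all. The E2F-type motif TTTGGCGC was found in the window of Ezh2 (0.514% of all windows), and its variant TTTCGCGC in 0 of the 14 (0.323% of all). AAGATGGC, the YY1 motif, was in the Phf19 window (2.75% of all). CCGGAAGT (ETS) and TGACGTCA (CREB) were in 0 of the 14 windows and in 3.89% and 1.79% of all. Each motif was searched on both strands as the exact letters shown, so other forms, including other E2F-type sequences, were not counted. A window without a match here may hold such a form. A match describes letters, not a binding site.

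PRC2 transcripts were not called changed by the loss of Gzf1. Over all 9 libraries 0 of 10 members passed an adjusted p of 0.05 in edgeR's quasi-likelihood test with run as a term, and 0 had an unadjusted p under 0.05. Over all tested rows 0.0316% passed, all of them lower in knockout cells, and 2.32% had an unadjusted p under 0.05. DESeq2 and limma voom also called 0 members. Log2 fold changes of knockout minus wild-type ran from -0.14 (Aebp2) to 0.21 (Phf19), 5 positive and 5 negative, with a median of -0.028 against 0.012 for all tested rows. The median size of a member's change was 0.086 on the log2 scale, against 0.124 over all rows. In 0 of 10 members did the knockout libraries lie wholly above or below the wild-type libraries, against 0.443% of tested rows (0.198% above and 0.245% below).

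The intervals show what sizes these libraries leave possible. For Mtf2 the log2 fold change was 0.0084 with a 95% interval from -0.23 to 0.25, and for Suz12 it was 0.052 with an interval from -0.20 to 0.30. Rbbp7, at -0.12, had an interval from -0.37 to 0.12. The widest intervals belonged to Phf19, from -0.49 to 0.91, and Ezh1, from -0.45 to 0.62. An upward change of 1.5-fold lay inside the intervals of those 2 genes, and a p above the threshold does not show that the genotypes were alike.

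**Figure D1:**
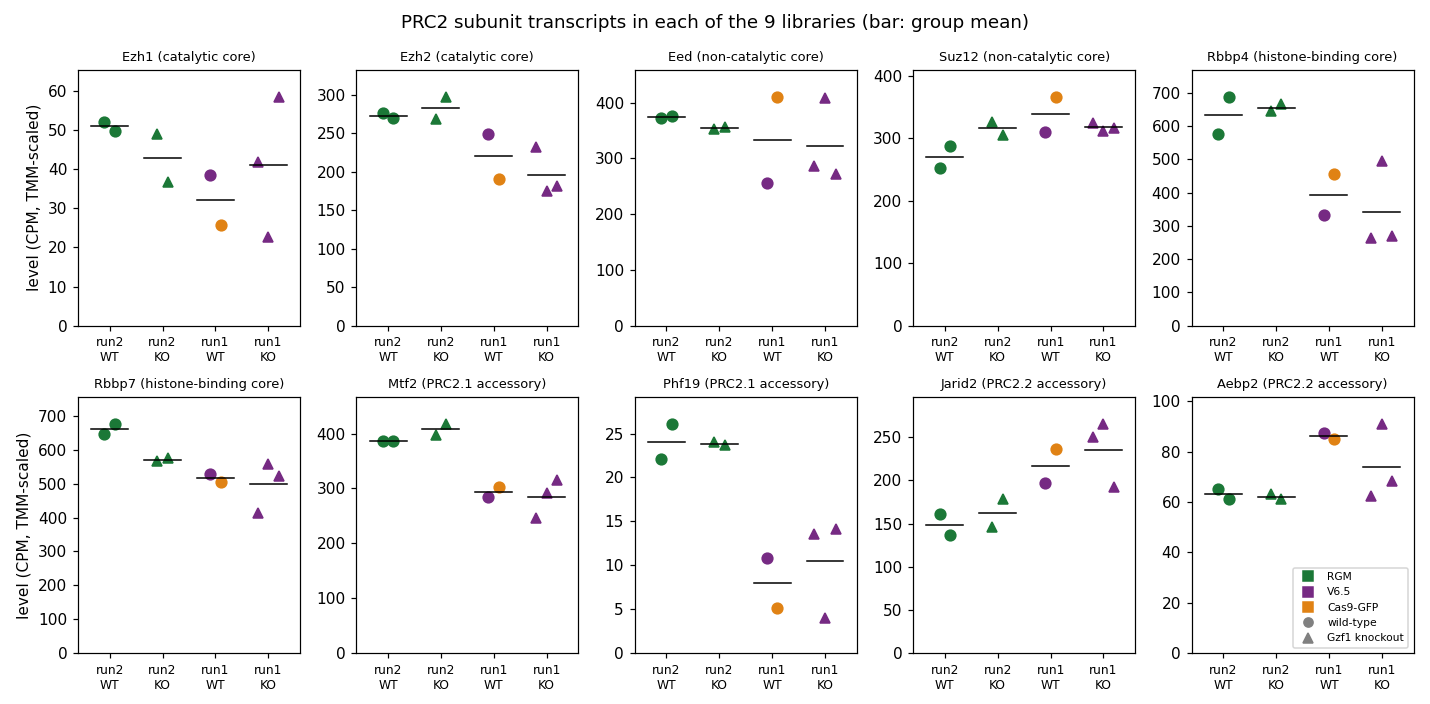
Level of each PRC2 subunit transcript (CPM, linear axis from 0) in the 9 libraries, split by run and genotype, with colour for cell line, symbol for genotype and a bar for the group mean. The 4 RGM libraries sit above all 5 run1 libraries for Ezh2, Rbbp4, Rbbp7, Mtf2 and Phf19 and below them for Jarid2.

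By cell line and run, 5 of the 10 members differed at an adjusted p of 0.05 (edgeR, genotype as a term). Ezh2, Rbbp4, Mtf2 and Phf19 were higher in RGM cells (run2) than in the run1 libraries, and Jarid2 was lower. Over all tested rows 45.3% differed in this comparison, 22.2% higher and 23.1% lower, so the members' share is near the background. At an unadjusted p under 0.05 the count was 7 of 10, against 52.9% of rows. Members had a median log2 difference of 0.30, against -0.02 over all rows, and a median size of 0.38 against 0.49. In 6 of 10 members the RGM libraries lay wholly on 1 side of the run1 libraries, 5 above and 1 below, against 38.6% of tested rows (19.4% above and 19.2% below).

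Among the catalytic subunits, Ezh2 had 277 and 269 CPM in the RGM wild-type libraries, and 268 and 297 CPM in the RGM knockouts. In run1 its level was 249 CPM in wild-type replicate 3, 191 in wild-type replicate 4, and 232, 175 and 182 in knockout replicates 3 to 5. Every RGM library lay above every run1 library, while the genotypes overlapped. The RGM libraries averaged 278 ± 13.2 CPM (SD, n = 4) and the run1 libraries 206 ± 32.8 CPM (SD, n = 5), and the fitted RGM level was 1.345-fold the fitted run1 level (log2 difference 0.43, SE 0.13, edgeR adjusted p = 0.015). Without both libraries numbered 4 the difference was 0.31 (SE 0.13) and no longer passed (adjusted p = 0.076), nor did it without knockout replicate 2 (0.38, adjusted p = 0.062).

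Ezh1, the other catalytic subunit, had 52.0 and 49.7 CPM in the RGM wild-type libraries, and 49.0 and 36.7 CPM in the RGM knockouts. In run1 wild-type replicates 3 and 4 had 38.6 and 25.8 CPM, and knockout replicates 3 to 5 had 41.8, 22.8 and 58.4 CPM. Run1 thus held both the lowest and the highest library, and neither genotype nor line separated them. The line difference of 0.34 (SE 0.25) did not pass (edgeR adjusted p = 0.29). It passed with limma voom (0.48, adjusted p = 0.045) and without knockout replicate 5 (0.52, adjusted p = 0.048), and was 0.019 (SE 0.19, adjusted p = 0.95) without both libraries numbered 4.

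Eed, the reader of the methyl mark, was held within 352 to 376 CPM in the 4 RGM libraries. In run1 its level was 256.5 CPM in wild-type replicate 3, 409.8 in wild-type replicate 4 and 286, 407 and 272 in knockout replicates 3 to 5. The 2 libraries numbered 4 were above all RGM libraries and the other 3 below them. With all libraries the line difference was 0.15 (SE 0.15, edgeR adjusted p = 0.45). Without both libraries numbered 4 it was 0.41 (SE 0.11) and passed (adjusted p = 0.011).

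Suz12, the scaffold, was the member with the smallest range over libraries, 1.45-fold from lowest to highest. The RGM wild-type libraries had 252 and 288 CPM, and the RGM knockouts 327 and 306 CPM. Wild-type libraries of run1 had 311 and 366 CPM, and knockout replicates 3 to 5 had 325, 312 and 316 CPM. Both RGM knockout libraries lay above both RGM wild-type libraries, a log2 difference of 0.23 (SE 0.17, unadjusted p = 0.19, edgeR adjusted p = 1). Between lines Suz12 differed by -0.15 (SE 0.12, adjusted p = 0.31).

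Rbbp4 had the most firmly called difference between lines of the members. RGM wild-type libraries held 577 and 686 CPM, RGM knockouts 643.5 and 667 CPM. Wild-type libraries of run1 held 332 and 456 CPM, and knockout replicates 3 to 5 held 263.5, 495 and 269.8 CPM. All RGM libraries lay above all run1 libraries, and within run1 both libraries numbered 4 were above the other 3. The RGM level was 1.77-fold higher (log2 difference 0.82, SE 0.18, edgeR adjusted p = 0.0025). Without both libraries numbered 4 it was higher by 1.14 on the log2 scale (SE 0.13, adjusted p = 5.1e-05).

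Rbbp7, its relative on the X chromosome, had 646 and 675 CPM in the RGM wild-type libraries, and 566 and 577 CPM in the RGM knockouts. In run1 the wild-type values were 527 and 506 CPM, and knockout replicates 3 to 5 had 415, 558 and 522 CPM. The lines did not overlap, although the nearest libraries differed by few CPM. The log2 difference of 0.27 (SE 0.12) did not pass (unadjusted p = 0.035, edgeR adjusted p = 0.071), and it passed with upper quartile scaling (0.30, adjusted p = 0.042), with limma voom (0.29, adjusted p = 0.020) and without knockout replicate 4 (0.32, adjusted p = 0.035). The RGM knockouts were both lower than the RGM wild-type libraries (-0.21, SE 0.18, unadjusted p = 0.26, edgeR adjusted p = 1).

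Among the PRC2.1 subunits, Mtf2 had 387 CPM in both RGM wild-type libraries, and 398 and 417 CPM in the RGM knockouts. Wild-type libraries of run1 had 284 and 303.5 CPM, and knockout replicates 3 to 5 had 247, 291 and 315 CPM. No run1 library reached an RGM library. Mtf2 was 1.38-fold higher in RGM cells (log2 difference 0.46, SE 0.11, edgeR adjusted p = 0.0038), and it passed under 16 of 16 alternatives with values from 0.41 to 0.50.

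Phf19 showed the largest fold difference of the members at the lowest counts. The RGM wild-type libraries had 22.1 and 26.05 CPM, and the RGM knockouts 24.0 and 23.7 CPM. In run1 wild-type replicates 3 and 4 had 10.85 and 5.09 CPM, and knockout replicates 3 to 5 had 13.55, 3.97 and 14.1 CPM. The 2 lowest values came from the libraries numbered 4, with 27 and 19 counts, and the RGM libraries were above all of run1. Phf19 was 2.53-fold higher in RGM cells (log2 difference 1.34, SE 0.32, edgeR adjusted p = 0.0042). Without both libraries numbered 4 the log2 difference was 0.92 (SE 0.19, adjusted p = 0.0025).

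Jarid2, of PRC2.2, went the other way. Its RGM wild-type levels were 161 and 137 CPM, and the RGM knockouts had 146 and 178 CPM. Wild-type libraries of run1 had 197 and 236 CPM, and knockout replicates 3 to 5 had 249.7, 265 and 192 CPM, all above every RGM library. Jarid2 was 1.45-fold lower in RGM cells (log2 difference -0.54, SE 0.13, edgeR adjusted p = 0.0048), and it passed under 16 of 16 alternatives with values from -0.61 to -0.44.

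Aebp2, with BC008224 in its row, had 65.2 and 61.2 CPM in the RGM wild-type libraries, and 63.1 and 61.2 CPM in the RGM knockouts. In run1 the wild-type libraries had 87.2 and 85.2 CPM, and knockout replicates 3 to 5 had 62.5, 90.9 and 68.4 CPM. The 4 RGM libraries were within 61.2 to 65.2 CPM, and knockout replicate 3 of run1 fell inside that range. The line difference of -0.34 (SE 0.14) did not pass (unadjusted p = 0.031, edgeR adjusted p = 0.065). It passed with limma voom (-0.34, adjusted p = 0.031) and without knockout replicate 3 (-0.41, adjusted p = 0.027) or 5 (-0.38, adjusted p = 0.036).

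**Figure D2:**
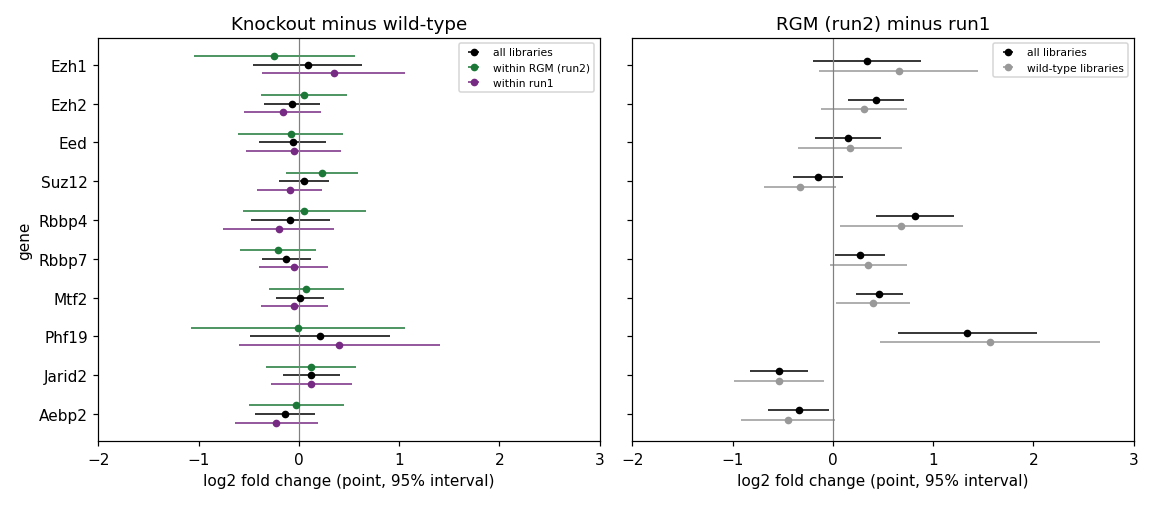
Log2 fold change of each member with its 95% interval (edgeR), at left knockout minus wild-type over all libraries and within each run, at right RGM (run2) minus run1 over all libraries and over the wild-type libraries alone. Every genotype interval crosses 0, and the line intervals over all libraries lie furthest from 0 for Phf19 (1.34) and Rbbp4 (0.82).

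The line difference was also taken over wild-type libraries alone, 2 of RGM and 2 of run1. Phf19 passed (log2 difference 1.57, SE 0.51, edgeR adjusted p = 0.040), which makes 1 of 10 members against 24.4% of all tested rows (12.1% higher and 12.3% lower). Rbbp4 had 0.68 (adjusted p = 0.096), Jarid2 -0.54 (0.075), Mtf2 0.40 (0.11) and Ezh2 0.31 (0.27), here too as adjusted p. The signs of all 10 members were those of the comparison over all libraries, with which this one shares its wild-type libraries. The call of Phf19 was lost in 6 of the 9 fits that left out 1 library, including each of those without a wild-type library (adjusted p from 0.052 to 0.23).

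For knockout against wild-type among the RGM libraries 0 of 10 members passed in edgeR's test, with 0% of tested rows, and 0 had an unadjusted p under 0.05 (0.822% of rows). Log2 fold changes there ran from -0.24 (Ezh1, SE 0.37) to 0.23 (Suz12, SE 0.17). In 5 members the 2 knockout libraries did not overlap the 2 wild-type libraries, Suz12 and Mtf2 above and Ezh1, Eed and Rbbp7 below, against 34.6% of tested rows (18.0% above and 16.6% below). In run1 the 3 knockout libraries were labelled V6.5 and 1 of the 2 wild-type libraries was Cas9-GFP, so genotype was partly mixed with line. There 0 of 10 passed, with 0.0158% of tested rows, and 0 had an unadjusted p under 0.05 (3.84% of rows). Values ran from -0.23 (Aebp2, SE 0.19) to 0.40 (Phf19, SE 0.46), and 0 members had non-overlapping genotypes, against 13.5% of tested rows (6.42% above and 7.10% below). DESeq2 and limma voom called 0 members in either run.

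The difference of the knockout effect between runs was called in 0 of 10 members, with 0% of tested rows in edgeR, and 0 had an unadjusted p under 0.05 (1.44% of rows). It ran from -0.59 (Ezh1, SE 0.50, unadjusted p = 0.25, edgeR adjusted p = 0.9999) to 0.32 (Suz12, SE 0.23, unadjusted p = 0.18). For Ezh1 the effect was -0.24 in RGM cells and 0.35 in run1. DESeq2 and limma voom also called 0 members.

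**Figure D3:**
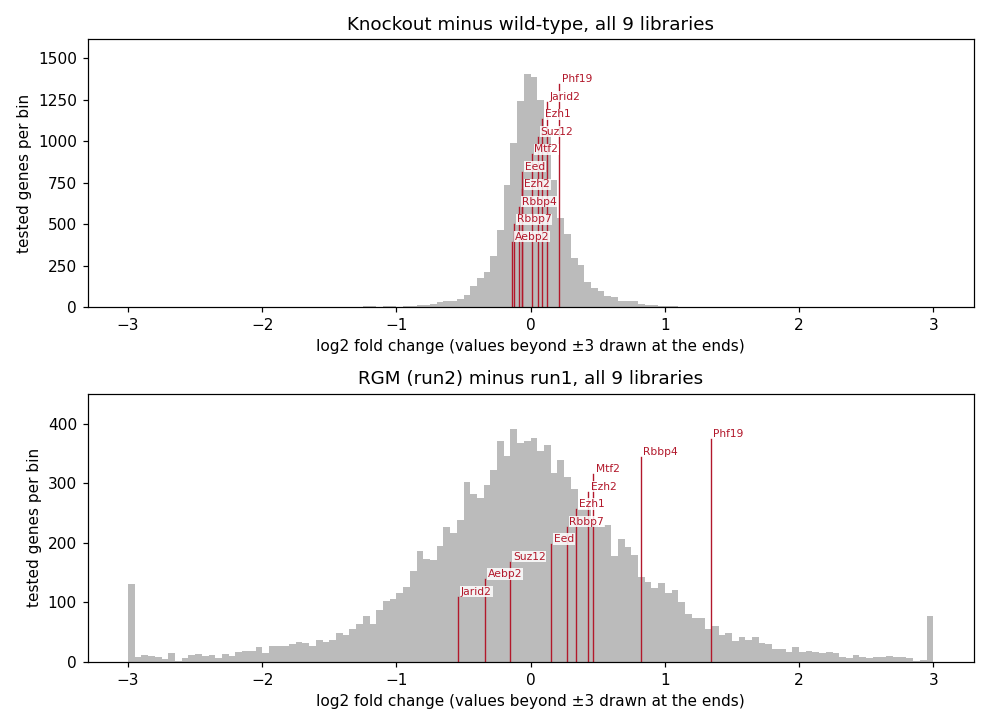
Histograms of the log2 fold changes of all 12645 tested rows (grey, 0.05 per bin, values beyond 3 in size drawn at the ends) with the 10 members marked in red, for the genotype comparison at top and the line comparison at bottom. Genotype changes of the members lie between -0.14 and 0.21, while line differences reach from -0.54 (Jarid2) to 1.34 (Phf19) inside a wide background.

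Both libraries numbered 4 lay outside the range of the other 3 run1 libraries in 4 of 10 members, above it for Eed and Rbbp4 and below it for Ezh1 and Phf19. Over all tested rows this held in 34.3% (16.6% above and 17.7% below), so the members' share is near the background. The other 3 libraries averaged 2.83 times the Phf19 level of the 2 libraries numbered 4, and 1.90 times their Ezh1 level. For Rbbp4 the 2 libraries averaged 1.65 times the other 3, and for Eed 1.51 times. These 2 libraries were chosen after their values were seen, so the ratios are a description with no test.

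Counts of related genes were also set against each other inside each library, which needs no scaling between libraries. The assay counts 3' ends, so a share is not divided by length and is read only as it varies between libraries, with exact Clopper-Pearson 95% intervals that cover counting error only. Jarid2 and Aebp2 together made up 32.4% to 35.6% of the counts of the 4 accessory genes in the RGM libraries and 44.1% to 54.6% in run1. Those 4 genes leave out other partners of PRC2.1. Among these, Epop held 616 to 926 counts in the RGM libraries and 2018 to 6596 in run1. The share therefore describes these 4 genes and not the balance of PRC2.1 and PRC2.2. The ranges did not overlap, and neither did the intervals, the highest RGM bound being 37.6% and the lowest run1 bound 42.5%. The genotypes overlapped, at 42.0% ± 9.38 (SD) over 4 wild-type and 44.3% ± 10.2 (SD) over 5 knockout libraries.

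Rbbp7 made up 46.4% to 52.8% of the counts of Rbbp4 and Rbbp7 in the RGM libraries. In run1 the share was 61.4% in wild-type replicate 3, 61.1% in knockout replicate 3 and 65.9% in knockout replicate 5. It was 52.6% and 53.0% in the wild-type and knockout libraries numbered 4, which put wild-type replicate 4 inside the RGM range. Within RGM cells the knockout libraries had 46.8% and 46.4%, below the wild-type libraries at 52.8% and 49.6%.

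Ezh1 made up 11.01% to 15.8% of the counts of Ezh1 and Ezh2 in 8 of the libraries. Knockout replicate 5 of V6.5 was at 24.3% (interval 22.1% to 26.6%), above each of the others. The V6.5 wild-type library had 13.4% (12% to 14.97%) and knockout replicate 3 of the same line 15.2% (13.7% to 16.9%). Lines overlapped, with 14.5% ± 2.31 (SD, n = 4) in RGM and 15.3% ± 5.24 (SD, n = 5) in run1.

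**Figure D4:**
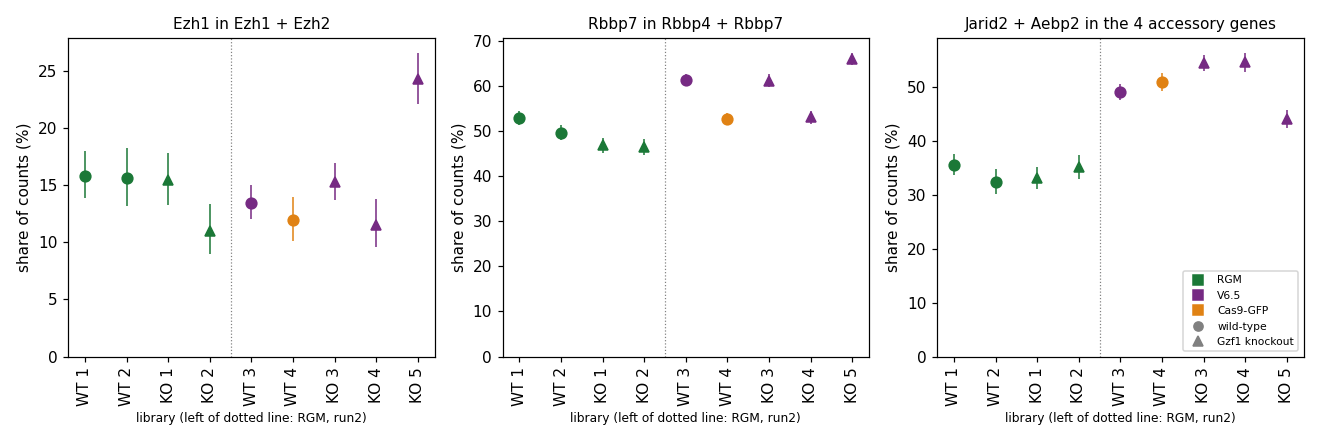
Share of counts (%, axis from 0) of Ezh1 in the catalytic pair, Rbbp7 in the histone-binding pair and Jarid2 with Aebp2 in the 4 accessory members, per library, with exact 95% intervals, colour for cell line and symbol for genotype. The accessory share is 32.4% to 35.6% in RGM and 44.1% to 54.6% in run1, and knockout replicate 5 is alone at 24.3% for Ezh1.

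Markers of feeder cells moved with the line. Of 21 tested fibroblast markers 18 were higher in RGM cells and 0 lower, or 85.7% against 45.3% of all rows, and the summed level of all 22 listed was 1502 to 2780 CPM in RGM and 758 to 1271 CPM in run1 libraries. Lum was at 0 in wild-type replicate 3, and no other fibroblast marker was at 0 in any library. The summed ES cell markers overlapped, 6637 to 7485 CPM in RGM and 6580 to 8372 CPM in run1. The sum hides single markers, since of the 14 ES cell markers 3 were higher and 4 lower in RGM, or 50% against 45.3% of all rows. Lin28a was higher (log2 difference 1.55), and Tdgf1 (-1.44), Fgf4 (-1.28) and Klf4 (-1.23) were lower. Primitive endoderm markers summed to 209 to 254 CPM in RGM and 133 to 215 CPM in run1. Trophoblast markers summed to 90.4 to 133 CPM and 58.1 to 169 CPM in the same order, with Elf5 at 0 in 2 libraries and Hand1 at 0 in 1. Of 6 tested primitive endoderm markers 3 were higher and 0 lower in RGM, or 50% against 45.3% of all rows. Pdgfra, among those 3, is also a listed fibroblast marker. Sox17 and Sox7, listed but not tested, went the other way, with their RGM values under the floor of 3 counts. Sox17 was at 0.27 to 0.789 CPM in RGM and 1.37 to 5.01 CPM in run1. Sox7 was at 0.395 to 0.641 CPM in RGM and 0.82 to 8.56 CPM in run1. This sum too hides single markers. For the 6 tested trophoblast markers 2 were higher and 2 lower, or 66.7% against the same 45.3%. The part of these cells in the line differences of PRC2 genes was not tested, and in bulk RNA fewer cells of a type and less RNA per cell cannot be told apart.

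Depth moved with the line as well, since each RGM library held fewer counts than each run1 library. Annotated neighbours overlap some members at their 3' ends, and no source used here states how strand was handled, so their reads cannot be told apart. In GENCODE M21 (GRCm38) the last 300 bases of the longest coding transcript of Rbbp4 (chromosome 4, 129307100 to 129335370) share 264 bases with Sync. Those of Rbbp7 (chromosome X, 162760402 to 162779092) share 174 bases with Txlng, which was lower in RGM cells by a log2 difference of -0.83 (SE 0.15, edgeR adjusted p = 0.00045). Sync held at most 2 counts in any library. Mtf2 overlaps Tmed5 in exons on the opposite strand, and lincRNAs overlap exons of Ezh2, Suz12 and Rbbp4 in the same way. For the other 8 members 0 annotated transcripts of other genes matched these bases over 150 bases or more at 90% identity, so Ezh1 and Ezh2 did not share such an end.

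The remaining genes of the Polycomb pathway, taken from fixed lists, gave 0 calls in the genotype comparison over all libraries in each list (edgeR), and 0 genes at an unadjusted p under 0.05 in each but the developmental list. Other tools were not run on these lists. The counts between lines that follow are to be read against the 45.3% of all tested rows that differed, 22.2% higher and 23.1% lower. Other PRC2-associated proteins had 4 tested of 6 listed, with 2 higher and 2 lower in RGM cells, or 100% of those tested against 45.3% of all rows. Epop, an elongin-binding partner of PRC2.1, was at 243 to 352 CPM in RGM and 331 to 1378 CPM in run1 (log2 difference -1.52, SE 0.38, edgeR adjusted p = 0.0065), highest in the 2 libraries numbered 4. Of 29 subunits of PRC1, the complex that ubiquitinates histone H2A, 4 were higher and 9 lower in RGM cells, or 44.8%, near the 45.3% of all rows. Rnf2, its main ligase in ES cells, was at 70.1 to 81.0 CPM in RGM and 132 to 214 CPM in run1 (-1.17, SE 0.16, adjusted p = 5.2e-05).

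Enzymes that oppose Polycomb had few tested members. Of 6 tested H3K27 demethylase and H2A deubiquitinase genes 0 were higher and 3 lower in RGM cells, or 50% against 45.3% of all rows, among them Kdm6b, an H3K27 demethylase (-0.82, SE 0.18, edgeR adjusted p = 0.0018). Of 14 subunits of H3K4 methyltransferases 2 were higher and 4 lower (42.9%), and of 5 H3K36 methyltransferases 1 was higher and 0 lower (20%), against the same 45.3%. Among 22 other subunits of complexes that also hold Rbbp4 or Rbbp7, 1 was higher and 9 lower, or 45.5% against 45.3% of all rows, with a median log2 difference of -0.22 against -0.018. Chaf1a, of the CAF-1 histone chaperone, had -1.05 (SE 0.16, adjusted p = 0.00019), the opposite sign to Rbbp4.

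Developmental genes listed as carrying the PRC2 mark in ES cells were mostly low, and the mark itself was not measured here. Of 80 listed 35 were tested, and those 35 had passed through whichever libraries held counts, so they are not the whole list. A gene near 0 in 1 line could enter through the other, which bears on the share called between lines. In the genotype comparison 0 passed, with a median log2 fold change of 0.03 and 1 gene at an unadjusted p under 0.05, against 2.32% of all rows. Between lines 10 were higher and 9 lower in RGM cells, or 54.3% against 45.3% of all rows, with a median of 0.27 against -0.018. T, a mesoderm transcription factor, was at 4.81 to 5.92 CPM in RGM libraries, while the run1 libraries held at most 2 counts each. Igf2, a growth factor, was also higher in RGM, at 117 to 159 CPM against 21.7 to 48.5 CPM in run1 (log2 difference 2.26, SE 0.20, edgeR adjusted p = 1.8e-06). Feeder markers were higher in RGM too, and the part of feeder cells in the Igf2 difference was not tested. Olig1 and Olig2, transcription factors of the oligodendrocyte lineage, went the other way. Olig1 held 0 to 2 counts in each RGM library and 28.5 to 37.5 CPM in run1. Olig2 held 0 counts in each RGM library and 26.4 to 39.3 CPM in run1. Both passed the filter on low counts only through the run1 libraries, where they were high, so their levels are given without a p-value.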

How the data were processed

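The authors deposited raw counts per gene symbol for 9 libraries (4 wild-type, 5 Gzf1-knockout), whole numbers with a different total in each. Per the submitters' processing notes STAR, DESeq2 and mm10 were used, in roles and versions that the notes do not state. Counter, annotation and use of molecular identifiers: not given in the sources used here. From 30324 rows, 92 spike-in rows (1 count in all) were left out, and filterByExpr (minimum count 10, genotype as group) kept 12645. Counts were TMM-scaled. The test was the quasi-likelihood F test of edgeR 4.0.16 under R 4.3.3, with robust fitting, run and genotype as terms and Benjamini-Hochberg adjustment over all tested rows. Contrasts within runs, between wild-type libraries and of the effects came from a 4-group fit. SE is the absolute log2 fold change over the square root of F. A line difference is RGM minus run1. DESeq2 1.42.0, limma 3.58.1 voom, other scalings, no filter, other terms and leaving out libraries were the alternatives. The fits were tested on simulated data.

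Genes named are the 10 members, Gzf1, up to 4 of each list (called first, by smallest adjusted p, then the most highly expressed) and neighbours that overlap members. Outside that rule, Nanog, Sox2 and Pou5f1 are named as defining ES cell markers, and Lum, Elf5 and Hand1 as markers at 0, chosen after their values were seen. Sox17 and Sox7 are named as untested markers that went the other way, also chosen after their values were seen. The members and lists were chosen with earlier results of these data known. Older symbols were matched through RefSeq synonyms.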

Additional observations from a re-analysis of the deposited data

Results flagged for a closer look

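Aebp2 was at 90.9 CPM in knockout replicate 4, with the nearest other knockout library at 68.4 CPM, so that this library lay far from the other 4 of its genotype (gap over range 0.758). Chance sets apart about 1 in 20 groups of like libraries. The rule was applied to each of the 10 members in both genotypes, and set apart this group alone. The knockout group joins RGM and run1 libraries, which that rate does not allow for. The wild-type library numbered 4, of the Cas9-GFP line, had 85.2 CPM in the same row, and the V6.5 wild-type library 87.2 CPM.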

How the results depend on the processing

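The number of members called by genotype stayed at 0 under each alternative run, over all libraries, within RGM cells, within run1 and for the difference between runs, also when 1 library was left out (lowest 0, highest 0). Signs of some of these values, whose intervals all include 0, moved with the model. The log2 fold change of Mtf2 over all libraries was -0.0061 without the filter and -0.029 without a run term, where Phf19 was at -0.0089. With limma voom Ezh1 was at -0.080, and Phf19 within RGM cells at 0.0056. With cell line in place of run, Ezh1 was at -0.096, Eed at 0.091, Rbbp4 at 0.050 and Phf19 at -0.015. Without both libraries numbered 4, Eed was at 0.12 and Suz12 at 0.040 within run1. With the replicate block (numbers 1 to 4, 8 libraries) 0 members were called, Ezh1 was at -0.13 and Mtf2 at -0.030, and 6 genes were called in all, against 4. Correlations do not settle whether the numbers pair the samples. Deviations of same-numbered libraries correlated at -0.065 and -0.065 in RGM, and at 0.299 and 0.335 in run1. In run1 the crossed pairs had -0.299 (wild-type 4 with knockout 3) and -0.335 (wild-type 3 with knockout 4). With 2 wild-type libraries per run, their deviations from their mean mirror each other, so these values are not independent. Over all rows 7 genes were called with DESeq2, 10 with limma voom, 35 without the filter, and 2 without TMM factors, without a run term or with cell line as the term.

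Members whose genotype sign changed when 1 library was left out ranged, over all libraries, from -0.20 to 0.090 for Eed, -0.11 to 0.21 for Ezh1, -0.13 to 0.046 for Ezh2, -0.027 to 0.060 for Mtf2, -0.015 to 0.39 for Phf19, -0.26 to 0.049 for Rbbp4 and -0.011 to 0.14 for Suz12. Within RGM cells the ranges were -0.080 to 0.022 for Aebp2, -0.025 to 0.12 for Ezh2, -0.029 to 0.26 for Jarid2, -0.13 to 0.100 for Phf19 and -0.068 to 0.17 for Rbbp4. Within run1 they were -0.35 to 0.33 for Eed, -0.34 to 0.042 for Ezh2, -0.0015 to 0.26 for Jarid2, -0.12 to 0.046 for Mtf2, -0.024 to 1.07 for Phf19, -0.56 to 0.044 for Rbbp4, -0.14 to 0.061 for Rbbp7 and -0.20 to 0.029 for Suz12. For the difference between runs they were -0.41 to 0.27 for Eed, -0.15 to 0.13 for Jarid2 and -1.08 to 0.014 for Phf19.

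The line difference over all libraries changed sign in 0 of 70 values under other settings and in 0 of 90 with 1 library left out. Its count of 5 members (45.3% of all rows) was 8 with limma voom (52.6% of rows) and 4 to 7 with 1 library left out (35.4% to 49.7% of rows). Among wild-type libraries the count of 1 (24.4% of rows) was 2 without the filter (19% of rows), 4 with limma voom (38.5%), 3 without both libraries numbered 4 (24.6%) and 0 to 3 with 1 library left out (6.81% to 32.9%). It fell to 0 on leaving out any 1 of the wild-type libraries or of the RGM knockouts, and was 3 without knockout replicate 4 and 2 without knockout replicate 5. Eed ranged there from -0.13 to 0.54. Where a group is left with 1 library, that library is assumed to vary like the other groups. The cause of these shifts was not tested. Phf19 had the lowest counts of the members, 19 and 27 in the libraries numbered 4. Each of these libraries was deeper than every RGM library.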
